A study of Mus musculus with 4 samples.

Results

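The genes for proteins of the mitochondrial ribosome were examined in cells of the Pdgfra lineage that carried or lacked the MN1:BEND2 fusion gene. They were taken by symbol: every row named Mrpl or Mrps with a number and, at most, 1 letter from a to c. The rule found 78 genes of the 54348 in the table, and all 78 were expressed highly enough to be tested among 12871 genes. Of these, 51 belong to the large ribosomal subunit (Mrps18a and Mrps30 among them, despite their names) and 26 to the small subunit. The remaining gene, Mrps36, carries a ribosomal name but encodes a part of the 2-oxoglutarate dehydrogenase complex of the citric acid cycle. The 78 genes lie on 17 chromosomes, most often on chromosome 11, which holds 11.

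The libraries came from forebrain cells of mouse pups killed on postnatal day 4. Control mice carried PdgfraCreER and AI14. Fusion mice carried PdgfraCreER, MN1:BEND2 and AI14. PdgfraCreER is a recombinase that tamoxifen activates in cells expressing Pdgfra, the platelet-derived growth factor receptor of oligodendrocyte precursors and some fibroblasts, and AI14 makes recombined cells red with tdTomato. MN1:BEND2 joins parts of MN1 and BEND2 and is found in astroblastoma, a brain tumour. Both groups received tamoxifen on postnatal days 0 and 1, and live red cells were sorted after papain digestion. There were 2 libraries in each group. Whether both libraries of a group came from different animals is not stated, and p-values therefore reflect only library-to-library spread, which may be technical.

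Mitochondria keep their own ribosome. It translates only the few proteins encoded by mitochondrial DNA, which are subunits of the respiratory chain and of ATP synthase. Its ribosomal RNAs come from the mitochondrial genome, while every one of its proteins is encoded in the nucleus, made in the cytosol and imported. Many of these proteins have a counterpart in bacterial ribosomes, and others were gained by the mitochondrial ribosome and sit on its surface. Loss of single members is a known cause of respiratory chain disease.

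The groups differed in more than the fusion gene. Bend2 had 3.82 and 8.72 TPM in fusion replicates 1 and 2 and was listed at 0 in control libraries. Genes encoded by mitochondrial DNA held 7.30% to 10.1% of TPM in control libraries, against 48.7% in fusion replicate 1 and 26.2% in fusion replicate 2. Control libraries had 12772 and 13219 genes at or above 1 TPM, and fusion libraries 9050 and 10017. The Y-linked gene Eif2s3y was at 120.6 TPM or more in control libraries and at 0 in fusion libraries, so sex and genotype cannot be told apart. The 6 oligodendrocyte precursor markers summed to 723 and 989 TPM in control and to 260.5 and 380.3 TPM in fusion libraries, with none at 0. Markers of mature oligodendrocytes summed to 1581 and 2056 against 151 and 121 TPM, those of microglia and macrophages to 31.0 and 14.1 against 135 and 182 TPM, and those of fibroblasts to 36.9 and 106 against 97.2 and 205 TPM. Past the threshold, 4 of 6 precursor and 4 of 4 oligodendrocyte markers fell, and 3 of 5 tested microglial and 2 of 5 fibroblast markers rose. Of all genes tested, 51.3% were lower and 4.95% higher. After the rescaling described further on, 0 of 6 precursor and 3 of 4 oligodendrocyte markers were lower (18.6% of all genes tested). On that scale 3 of 5 microglial and 4 of 5 fibroblast markers were higher (14.3% of all). Neuronal markers summed to 173 and 161 against 36.6 and 17.98 TPM, astrocyte markers to 116 and 146 against 11.99 and 34.2 TPM, and endothelial markers to 1.21 TPM or less. Mog and P2ry12 were at 0 in both fusion libraries. The microglial marker P2ry12 was thus called lower (-1.25, limma adjusted p = 0.0111), against the direction of the 3 that rose. The part of these differences in the results that follow was not tested, and in bulk samples fewer cells of a type and less RNA per cell cannot be told apart.

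About as many mitochondrial ribosomal protein genes fell in fusion cells as did not pass the test, and 3 rose. On the log2(TPM + 1) scale and by limma's adjusted p under 0.05, 37 of 78 were lower in the fusion group, 3 were higher and 38 did not pass. Of all 12871 genes tested, 51.3% were lower and 4.95% higher, so these shares were near the background. The median change of the members was -1.44, beside -1.41 over all genes tested. The quartiles of the member changes were -2.64 and -0.24, beside -2.40 and -0.46 over all genes. Both fusion libraries were below both control libraries for 51 members (71.1% of all genes tested) and above both for 8 (10.2% of all), and the groups overlapped for 19. Without control replicate 1, limma called 0 members higher and 0 lower (0 and 19 at an unadjusted p under 0.05). Without control replicate 2 it also called 0 and 0 (0 and 20 unadjusted). Without fusion replicate 1 it called 15 higher and 42 lower, and without fusion replicate 2 it called 6 and 62, with the single library left in a group assumed to vary like the other group.

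The levels spread apart within the family. The median member was at 136 and 138 TPM in control replicates 1 and 2, and at 23.8 and 64.9 TPM in fusion replicates 1 and 2. Members at 10 TPM or less numbered 2 and 4 in the control libraries, against 27 and 18 in the fusion libraries. The summed level did not part the groups: it was 13700.4 and 13082.5 TPM in control and 9910.3 and 18726 TPM in fusion libraries. As a share of TPM from nuclear genes, the members held 1.52% and 1.41% in control and 1.93% and 2.54% in fusion libraries. The 5 highest members of each library held 24.2% and 22.0% of the members' TPM in control libraries and 59.6% and 54.7% in fusion libraries. In both fusion libraries those 5 were Mrpl42, Mrpl33, Mrps33, Mrps14 and Mrps18c.

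**Figure D1:**
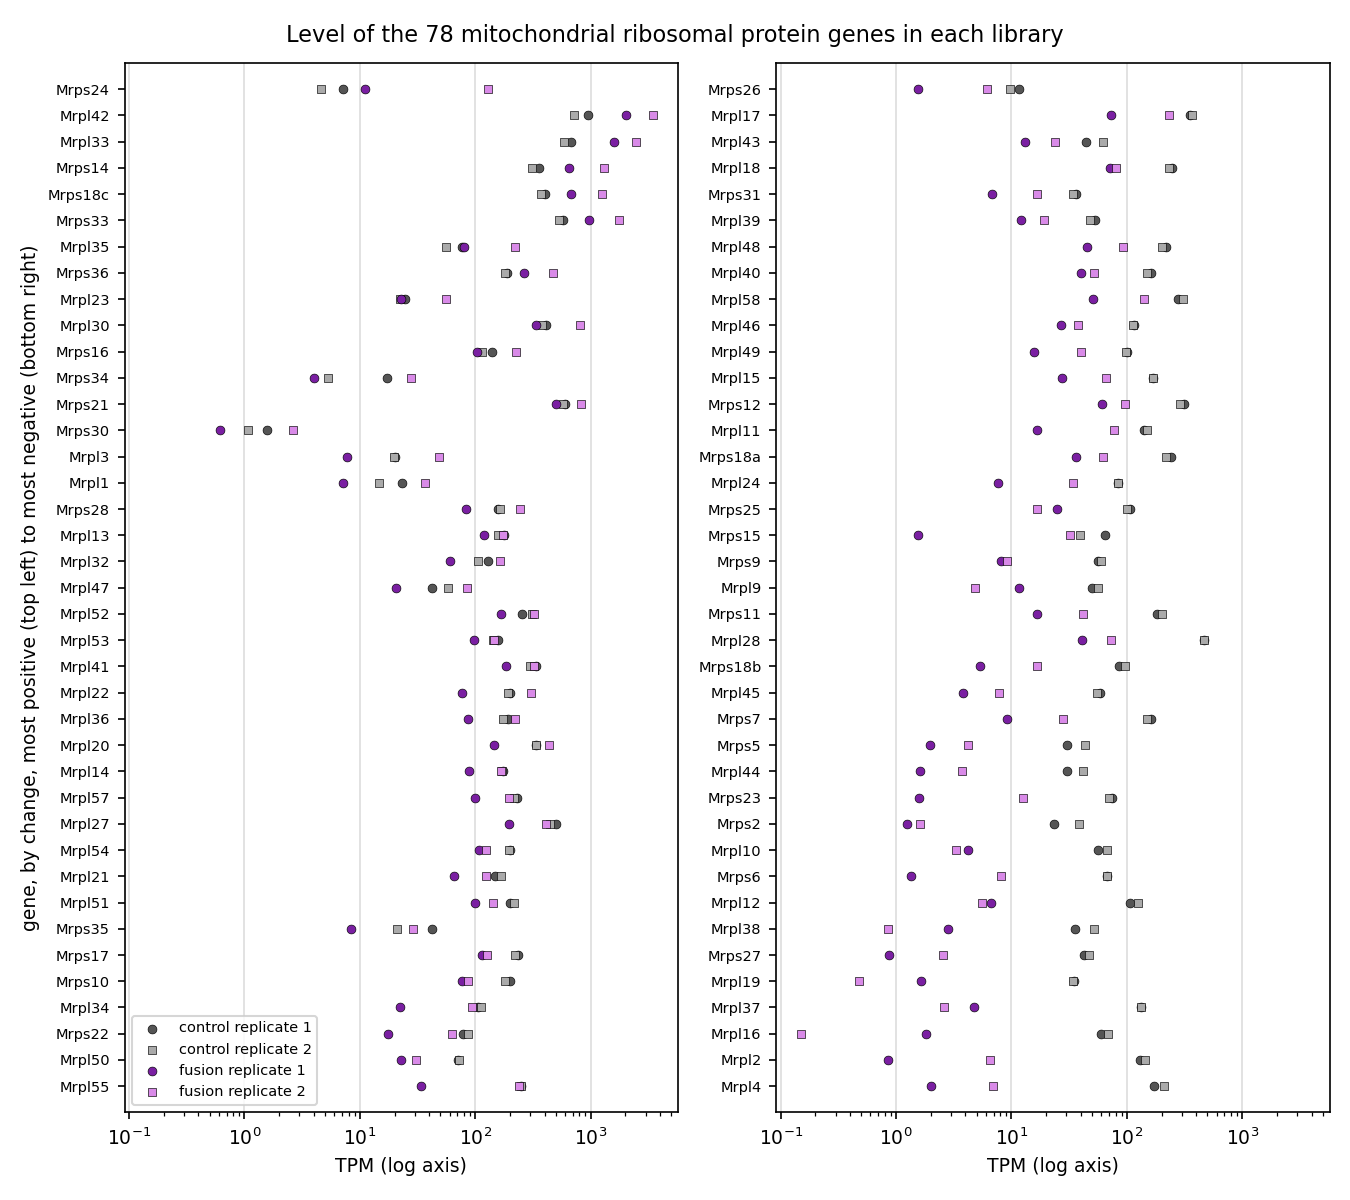
Each row is 1 of the 78 genes and each point is its TPM in 1 library (log axis), ordered from the most positive change at the top left to the most negative at the bottom right. The control points of a gene lie close together at most rows, and the fusion points lie left of them for the 51 genes whose fusion libraries are both lower and right of them for the 8 whose fusion libraries are both higher.

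The large subunit holds the centre that joins amino acids and the tunnel through which the new protein leaves. Of its 51 members 2 rose, 24 fell and 25 did not pass, and after the rescaling described further on 16 were higher and 11 lower. For this and the parts of the ribosome that follow, 51.3% of all genes tested were lower and 4.95% higher as deposited. After rescaling 18.6% were lower and 14.3% higher. Among the 30 with a bacterial counterpart, 1 rose, 11 fell and 18 did not pass, with a median change of -1.02. The largest falls of all members were those of Mrpl4 and Mrpl2. Mrpl4 (chromosome 9, 21002738 to 21008839, GRCm38), whose bacterial counterpart lines the exit tunnel, was at 172 and 208 TPM in control and at 2.02 and 6.94 TPM in fusion libraries. It fell by 5.28 ± 0.55 (log2, SE; limma adjusted p = 0.00374), and ranked 31 and 22 among the 78 genes in the control libraries but 66 and 64 in the fusion libraries. Mrpl2 (chromosome 17, 46646229 to 46650139), whose counterpart helps to shape the catalytic centre, was at 129.7 and 143 TPM in control and 0.848 and 6.47 TPM in fusion libraries, a change of -5.20 ± 0.71 (limma adjusted p = 0.00482). Both genes lay far below the control range in both fusion libraries.

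Mrpl16 and Mrpl19 were close behind. Mrpl16, counterpart of a bacterial protein at the tRNA-binding face, was at 59.4 and 68.4 TPM in control and at 1.82 and 0.151 TPM in fusion libraries, the lowest value of any member in any library. Its change was -5.17 ± 0.56 (limma adjusted p = 0.00384). Mrpl19, at the interface of the subunits, was at 34.7 and 34.0 TPM in control and 1.66 and 0.479 TPM in fusion libraries, a change of -4.16 ± 0.48 (limma adjusted p = 0.00384). For both, fusion replicate 2 was the lower fusion library, the opposite of what most members showed.

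The 5 genes of the stalk and its base, where translation factors dock, had 2 lower members and 3 that did not pass (2 lower and 2 higher after rescaling). Mrpl12, the stalk protein itself, was at 107 and 125 TPM in control and 6.59 and 5.51 TPM in fusion libraries, a change of -4.05 ± 0.36 (limma adjusted p = 0.00367). Mrpl10, which anchors it, was at 56.5 and 67.9 TPM against 4.17 and 3.30 TPM and fell by 3.74 ± 0.38 (limma adjusted p = 0.00371). The fusion libraries were close to each other for this pair and far below both controls. The highest gene of the 5, Mrpl54, was at 201 and 197 TPM in control and 107 and 125 TPM in fusion libraries, a change of -0.78 ± 0.32 that did not pass (limma adjusted p = 0.0889).

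Of the 8 genes placed around the exit tunnel, 4 fell and 4 did not pass, with a median of -1.55; after rescaling 1 was higher and 2 lower. Mrpl4 is not in this list. The highest of them, Mrpl17, was at 349 and 368 TPM in control and 72.9 and 234 TPM in fusion libraries, a change of -1.45 ± 0.60 that did not pass (limma adjusted p = 0.0915). Mrpl22, which lines the tunnel, was at 200.4 and 193 TPM in control and at 76.3 and 305 TPM in fusion libraries, so that 1 fusion library lay below and 1 above the controls. The 7 genes of the central protuberance, a knob of the large subunit that faces the small subunit, had both fusion libraries below both controls throughout. The same order held for 71.1% of all genes tested. Of the 7, 6 fell (51.3% of all genes tested) and Mrpl27 did not pass. Their median change was -1.74, beside -1.41 over all genes tested. After rescaling 1 was lower (18.6% of all) and 0 higher. Mrpl27 was at 506 and 443 TPM in control and 198 and 414 TPM in fusion libraries. Mrpl38, the most lowered of the 7, was at 35.7 and 52.3 TPM against 2.83 and 0.846 TPM, a change of -4.06 ± 0.53 (limma adjusted p = 0.00445).

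The 21 large-subunit genes listed as specific to mitochondria had a median change of -1.66, with 1 higher, 13 lower and 7 not past the threshold. Mrps18a, of a family with a bacterial ancestor, was counted among these. Mrpl37 (chromosome 4, 107055874 to 107066868) was nearly equal in the control libraries, at 133.8 and 133.6 TPM, and was at 4.75 and 2.62 TPM in the fusion libraries. It fell by 4.88 ± 0.40 (limma adjusted p = 0.00367). Mrpl42 (chromosome 10, 95480805 to 95501940) was the highest of the 78 genes in all 4 libraries and rose further. It was at 954 and 713 TPM in control and 2025 and 3472 TPM in fusion libraries, a rise of 1.68 ± 0.44 (limma adjusted p = 0.0244).

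Mrpl33 (chromosome 5, 31596935 to 31664384), the second in rank in all 4 libraries, was the other large-subunit gene that rose. Its product is a very short protein near the site where spent tRNA leaves the ribosome. Mrpl33 was at 675 and 594 TPM in control and at 1594 and 2470.5 TPM in fusion libraries. The rise was 1.65 ± 0.39 (limma adjusted p = 0.0189), and both fusion libraries were above both controls. The calls of Mrpl42 and Mrpl33 were lost with no filter on low values (limma adjusted p = 0.0854 and 0.0651) and without either control library (0.220 to 0.326). Among other abundant large-subunit genes, Mrpl30 and Mrpl41 gave no separation, while Mrpl27 and Mrpl28 had both fusion libraries below both controls. Mrpl30 was at 410.0 and 378 TPM in control and at 339 and 804 TPM in fusion libraries, and Mrpl41 at 334 and 299 TPM against 186 and 327 TPM.

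The small subunit reads the messenger RNA. Of its 26 members 1 rose, 13 fell and 12 did not pass, with a median change of -1.54, and after rescaling 7 were higher and 3 lower. Of all genes tested, 4.95% were higher and 51.3% lower, and 14.3% and 18.6% after rescaling. The 15 genes with a bacterial counterpart had a median of -1.96, with 1 higher and 8 lower. Mrps14 (chromosome 1, 160195215 to 160202170), in the head of the subunit, was at 355 and 308 TPM in control and at 646 and 1299 TPM in fusion libraries. It rose by 1.47 ± 0.45 (limma adjusted p = 0.0400). This call was lost with a replicate block (limma adjusted p = 0.0565), with a pseudocount of 0.1 (0.0550) and with no filter on low values (0.108). It was also lost without either control library, where the change was 1.57 without control replicate 1 and 1.37 without control replicate 2. Mrps6 was nearly equal in the control libraries, at 66.8 and 66.8 TPM, and was at 1.34 and 8.20 TPM in the fusion libraries, a change of -3.87 ± 0.71 (limma adjusted p = 0.00895). Mrps21, an abundant gene, did not separate the groups: it was at 601 and 580.5 TPM in control and 499 and 825 TPM in fusion libraries.

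Of the 11 small-subunit genes listed as specific to mitochondria, 5 fell and 6 did not pass, with a median of -1.45. Mrps18b, of a family with a bacterial ancestor, and Mrps28, which some classify as a counterpart of a bacterial protein, were counted among these. Mrps27 (chromosome 13, 99344786 to 99415562), an RNA-binding protein of the pentatricopeptide repeat family, was at 42.7 and 47.0 TPM in control and 0.867 and 2.55 TPM in fusion libraries. It fell by 4.15 ± 0.48 (limma adjusted p = 0.00384). Mrps33 was at 582 and 533 TPM in control and at 961 and 1753 TPM in fusion libraries. Both fusion libraries of Mrps33 were above both controls, but its change of 1.22 ± 0.43 did not pass (limma adjusted p = 0.0572). The median small-subunit gene stood at 0.555 and 0.611 of the median large-subunit gene in control replicates 1 and 2. It stood at 0.298 and 0.394 of it in fusion replicates 1 and 2. TPM is per transcript length, but other effects that differ between genes, such as GC content, may remain in these levels. The summed levels did not show this drop. Small-subunit genes summed to 4078 and 3838 TPM in control and 3347 and 6357 TPM in fusion libraries. Large-subunit genes summed to 9433 and 9065 TPM in control and 6296 and 11899 TPM in fusion libraries.

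The 3 genes of the Mrps18 family went different ways. They descend from 1 bacterial protein and have separate places in the ribosome. Mrps18a, now in the large subunit, was at 242 and 217 TPM in control and 36.0 and 62.0 TPM in fusion libraries, a change of -2.26 ± 0.40 (limma adjusted p = 0.00817). Mrps18b was at 86.0 and 95.9 TPM against 5.35 and 16.6 TPM and fell by 3.12 ± 0.57 (limma adjusted p = 0.00887). Mrps18c, which keeps the bacterial place, was at 402 and 370.4 TPM in control and at 679.7 and 1251 TPM in fusion libraries. Its change of 1.25 ± 0.42 did not pass (limma adjusted p = 0.0520), although both fusion libraries were above both controls. The differences between the changes of the 3 genes were not tested. After the rescaling to equal median ratios described further on, Mrps18c was called higher by 3.02 (limma adjusted p = 0.0108), and neither Mrps18a (-0.50) nor Mrps18b (-1.44) passed.

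**Figure D2:**
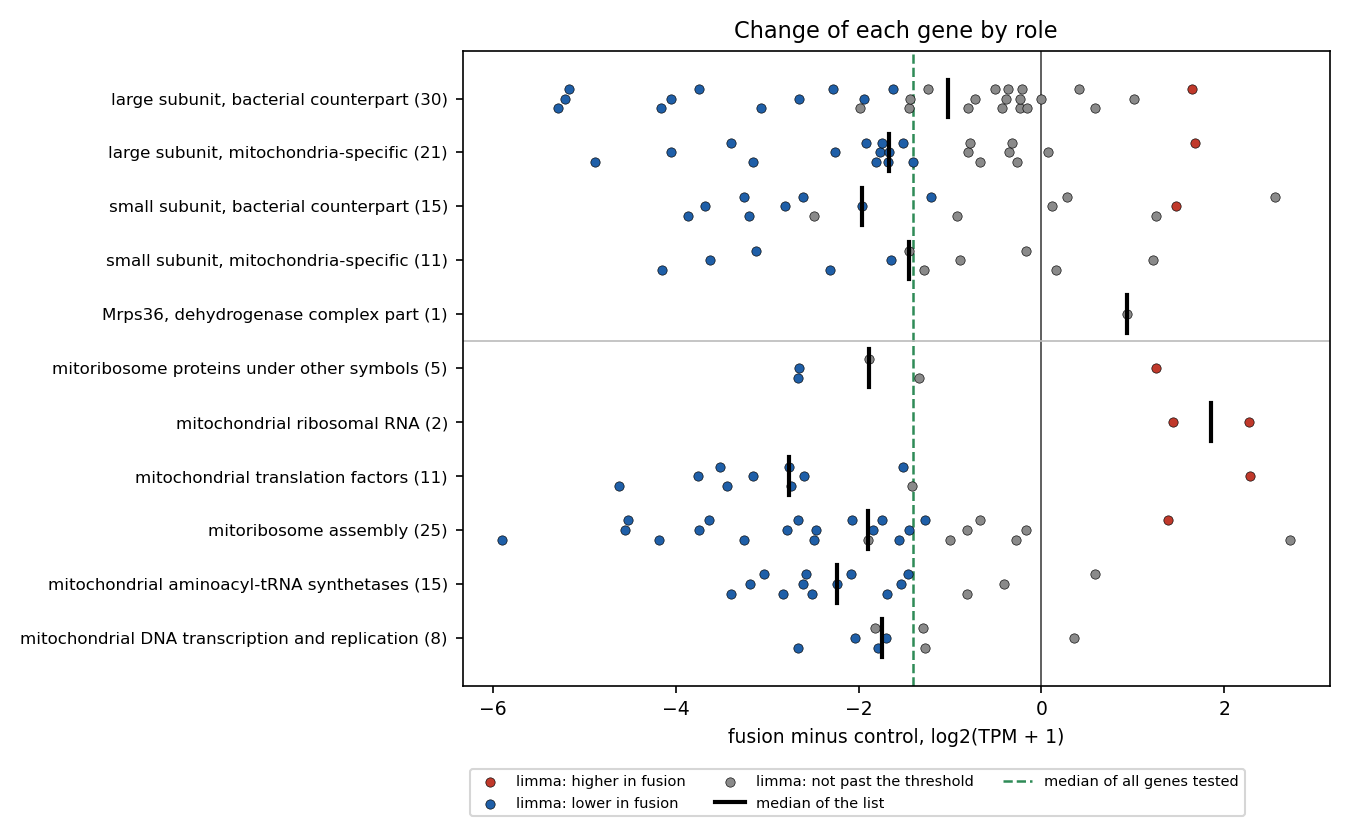
Points are genes, placed by the fitted change between fusion and control in log2(TPM + 1), with 1 row per role and the number of tested genes in brackets; the black bar is the row's median and the dashed line the median of all genes tested (-1.41). The ribosomal protein rows above the grey line lie on both sides of that line, with the 3 raised genes at the right.

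The fusion libraries disagreed with each other far more than the control libraries did. Fusion replicate 2 was above fusion replicate 1 for 70 of the 78 genes (89.7%), and for 62.1% of all genes tested. The median absolute log2 difference between libraries of a group was 0.13 in control and 1.03 in fusion for the members. Over all genes tested it was 0.30 and 0.63. In TPM, fusion replicate 2 was more than 2-fold above fusion replicate 1 for 42 members. Mrpl9, Mrpl16, Mrpl19 and Mrpl38 were more than 2-fold higher in fusion replicate 1. The control libraries differed by more than 2-fold, in either direction, for 2 members. The 8 genes that were lower in fusion replicate 2 were Mrpl9, Mrpl10, Mrpl12, Mrpl16, Mrpl19, Mrpl37, Mrpl38 and Mrps25, and all 8 are among the 37 that fell. After that rescaling, fusion replicate 2 was still the higher one for 58 members, beside 46.9% of all genes. Fusion replicate 2 was also the library with the smaller mitochondrially encoded share and the larger number of detected genes of the pair, and their part in this difference was not tested.

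**Figure D3:**
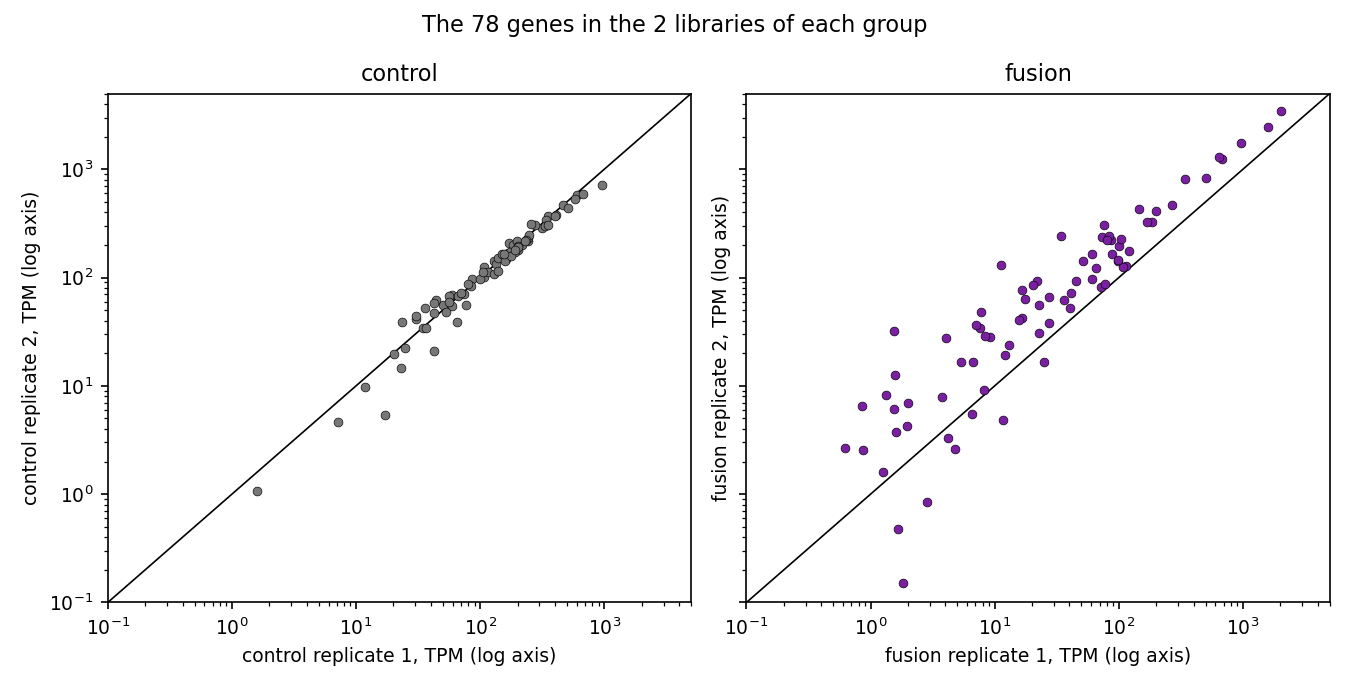
Each point is 1 of the 78 genes, with its TPM in replicate 1 across and in replicate 2 upward (both log axes), for control at the left and fusion at the right; the line marks equal values. Control points follow the line, while 70 of the 78 fusion points lie above it.

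Some genes had 1 fusion library below and 1 above the controls. Mrpl20, needed early in assembly of the bacterial large subunit, was at 338 and 339 TPM in control and at 146 and 432 TPM in fusion libraries. Mrpl36 was at 192 and 173 TPM against 87.1 and 221 TPM, and Mrpl52 at 256 and 309.9 TPM against 168 and 326 TPM. None of the 3 changes passed (-0.43, -0.39 and -0.27). The 5 changes nearest to 0 were those of Mrpl3, Mrps30, Mrps21, Mrpl1 and Mrps34. Mrpl3 was at 20.2 and 19.7 TPM in control and at 7.82 and 48.4 TPM in fusion libraries, so a change of -0.01 ± 0.84 joins opposite differences. Mrpl1 was at 23.1 and 14.6 TPM against 7.09 and 36.7 TPM, with the same split. The member with the lowest mean over the 4 libraries was Mrps30, at 1.58 and 1.07 TPM in control and 0.620 and 2.65 TPM in fusion libraries. Mrps24 had the largest positive value of all, 2.56 ± 1.13, which did not pass (limma adjusted p = 0.106); it was at 7.14 and 4.61 TPM in control, 11.2 TPM in fusion replicate 1 and 129 TPM in fusion replicate 2. It was chosen for mention after its values were seen.

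The counts depended on how libraries were scaled. Every library has an equal TPM total, so a rise of a few abundant genes can lower the TPM of the rest. The part of this in the falls was not tested. Without mitochondrially encoded genes the median change of all genes tested was -1.11, and without cytosolic ribosomal protein genes as well it was -1.09. Scaling each library to its median ratio over 10965 genes, in place of an equal total, moved that median from -1.41 to -0.15. The median of the members went from -1.44 to 0.31. On that scale limma called 24 members higher and 14 lower, where 14.3% of all genes were higher and 18.6% lower. The share of calls that were lower went from 92.5% to 36.8% for the members and from 91.2% to 56.5% for all genes. The 3 raised genes were called higher on both scales. Of the 37 lowered genes, 14 were called lower on both, 23 no longer passed and 0 were called higher. The 21 genes added to the higher calls all came from those that had not passed. Both fusion libraries were then above both controls for 34 members and below both for 22.

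The genes called lower on both scales were Mrpl2, Mrpl4, Mrpl10, Mrpl12, Mrpl16, Mrpl19, Mrpl28, Mrpl37, Mrpl38, Mrpl44, Mrpl45, Mrps2, Mrps5 and Mrps27. Mrpl28, chosen after its values were seen, shows the shift in rank, which no scaling can alter. It was number 6 and 5 of the 78 in control replicates 1 and 2 (467 and 463 TPM), and number 33 and 38 in fusion replicates 1 and 2 (41.2 and 72.4 TPM). Mrps14 moved the other way, from ranks 9 and 12 to ranks 5 and 4. On the rescaled values Mrpl42 changed by 3.45, Mrpl33 by 3.42 and Mrps14 by 3.24 (limma adjusted p = 0.0108 for each). Mrps36, the dehydrogenase component, was at 189.6 and 179.7 TPM in control and 267 and 469.9 TPM in fusion libraries. It did not pass as deposited (0.94 ± 0.40, limma adjusted p = 0.0981) and was called higher after rescaling (2.70, adjusted p = 0.0108).

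**Figure D4:**
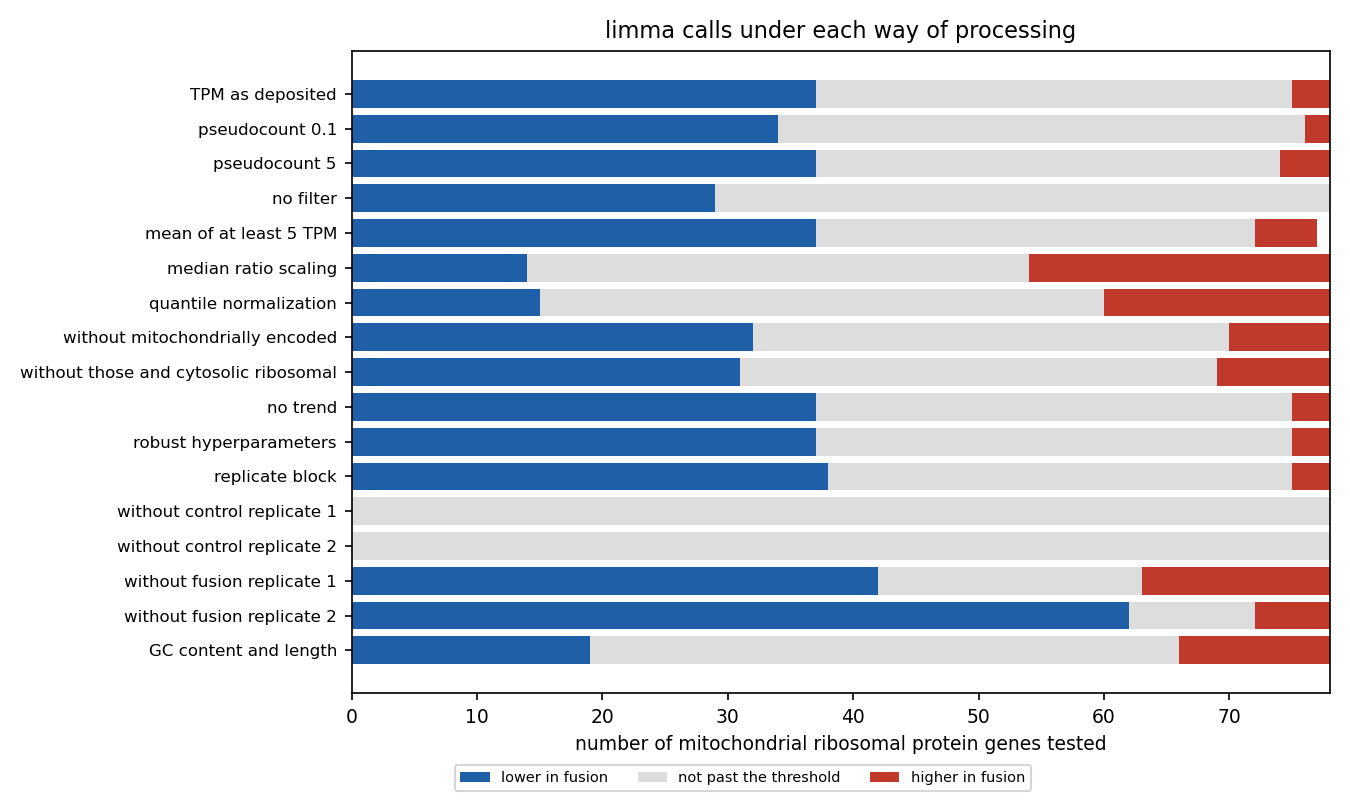
Bars give the number of members that limma called lower (left), not past the threshold (middle) and higher (right) under each way of processing, out of the 78 or, at a mean of at least 5 TPM, 77 tested. With TPM as deposited 37 were lower and 3 higher, with median ratio scaling 14 and 24, and with a control library left out 0 and 0.

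The members that rose encode short proteins, and most of those that fell encode longer ones. Coding length was taken from the principal transcript of each gene in GENCODE M21 and ran from 65 codons (Mrpl33) to 442 codons (Mrps30), with a median of 194. Across the 78 genes, Spearman's rho of the change with coding length was -0.54, beside 0.03 over 11309 coding genes tested. The same rho was -0.56 with rescaled libraries and -0.45 after a correction for GC content and transcript length. For single pairs of a fusion and a control library it ran from -0.57 to -0.49. These are descriptions over genes that share libraries and are not independent. Coding length also went with the level itself, with a rho of -0.61 against the mean control TPM and -0.75 against the mean fusion TPM. With transcript length rho was -0.27, and with GC content -0.31.

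Of the 24 members of at most 150 codons, 3 rose, 2 fell and 19 did not pass, with a median change of -0.38. That is 12.5% higher and 8.33% lower, beside 12.8% and 31.2% of other coding genes of this length. The 27 members of 151 to 250 codons had a median of -1.51, with 15 lower (55.6%, beside 53.4% of others) and 0 higher. The 27 longer members had a median of -3.06, with 20 lower (74.1%, beside 55.8% of others) and 0 higher. Other coding genes tested had medians of -0.43, -1.60 and -1.53 in the same length classes. These classes were chosen after the values were seen, and the differences between members and other genes were not tested.

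**Figure D5:**
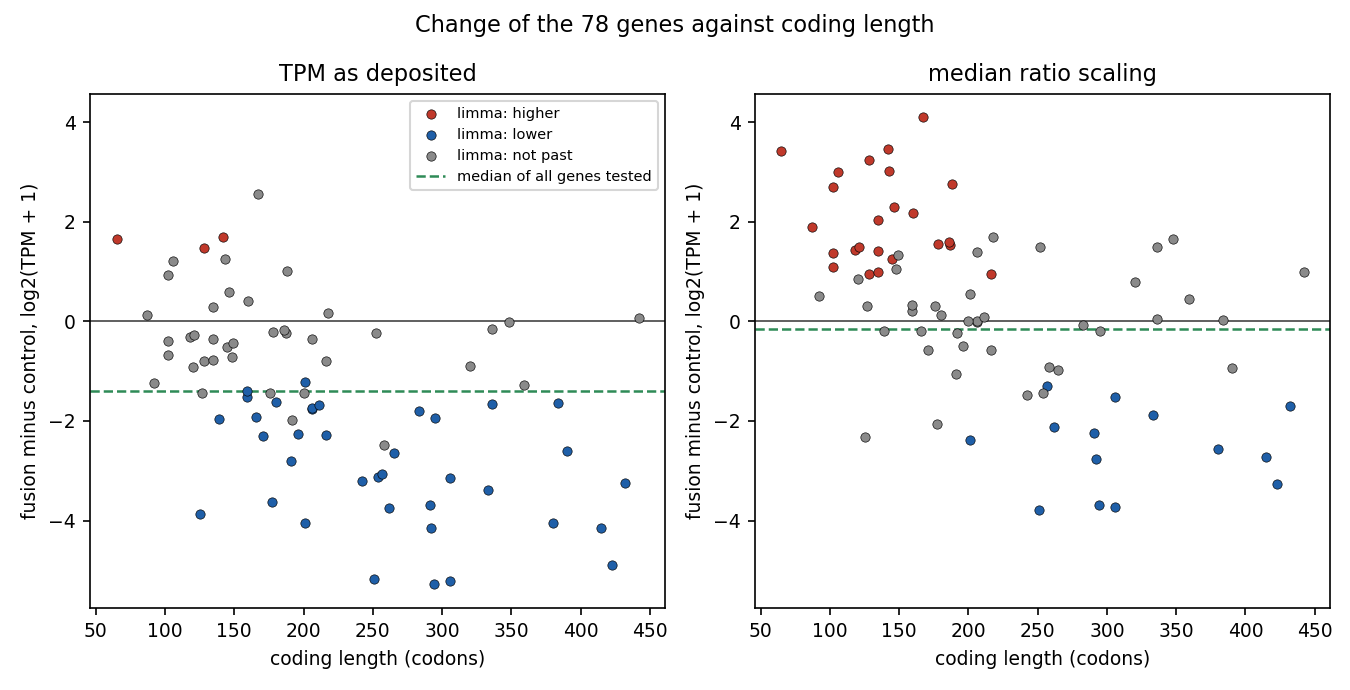
Points are the 78 genes, with coding length in codons across and the change between fusion and control upward, for TPM as deposited at the left and for median ratio scaling at the right; colours give limma's call and the dashed line the median of all genes tested. The 3 genes called higher at the left have at most 142 codons and the 24 called higher at the right at most 216, while genes called lower reach 432 codons in both panels.

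The rest of the mitochondrial translation apparatus was read from lists of genes with other symbols. Among 5 further proteins of the mitochondrial ribosome, Chchd1 rose, from 329 and 283 TPM to 611 and 866 TPM, by 1.25 ± 0.36 (limma adjusted p = 0.0335). Dap3 (-2.66) and Ptcd3 (-2.65) fell, and Aurkaip1 (-1.34) and Gadd45gip1 (-1.88) did not pass. The 2 ribosomal RNAs, mt-Rnr1 and mt-Rnr2, which the mitochondrion transcribes itself, both rose, by 2.27 and 1.44 (limma adjusted p = 0.0116 and 0.0315). Together they summed to 1322 and 1052 TPM in control and 5208 and 3017 TPM in fusion libraries. With TPM as deposited, the RNA and the protein genes of the ribosome had median changes of opposite sign; after rescaling both medians were above 0 (3.63 and 0.31). Mitochondrially encoded genes as a whole took a larger share of TPM in both fusion libraries.

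Of 11 mitochondrial translation factors, 9 fell, 1 rose and 1 did not pass, with a median of -2.76. For this and the lists that follow, 51.3% of all genes tested were lower and 4.95% higher as deposited. After rescaling 18.6% were lower and 14.3% higher. Tufm, the elongation factor that brings tRNA to the ribosome, was at 61.4 and 77.5 TPM in control and 1.69 and 2.03 TPM in fusion libraries, a change of -4.62 ± 0.39 (limma adjusted p = 0.00367). Mtif3 (-3.76), an initiation factor, and Mtrf1 (-3.52), a release factor relative, fell too. Mtrf1l, the release factor, was the exception, at 0.818 and 1.35 TPM in control and 5.42 and 14.8 TPM in fusion libraries. After rescaling, 5 of the 11 were lower, 1 was higher and 5 did not pass.

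Of 25 assembly factors, which process and fold the ribosomal RNA, 17 fell, 1 rose and 7 did not pass (median -1.90). The GTPase Mtg1 was at 67.1 and 53.5 TPM in control and listed at 0 and 0.0410 TPM in fusion libraries (-5.90 ± 0.42, limma adjusted p = 0.00367). Rpusd3 (-4.55) and Mettl17 (-4.53) followed, and the GTPase Noa1 rose by 1.39. Of 15 mitochondrial aminoacyl-tRNA synthetases tested among 17, 12 fell and 3 did not pass (median -2.23), among them Tars2 (-3.40) and Nars2 (-3.18). Aars2 and Vars2 were too low to test. Among 8 genes that transcribe and copy mitochondrial DNA, 4 fell and 4 did not pass. Among those past the threshold, the 3 with the largest falls were Tfam (-2.66), the packaging and transcription factor, Tfb2m (-2.04) and Twnk (-1.79), the helicase. After rescaling, 0 of these 8 genes, 3 of the 15 synthetases and 7 of the 25 assembly factors were lower.

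In a list of 3 genes for mitochondrial RNA stability and protein insertion, Slirp rose by 1.60 ± 0.35 (limma adjusted p = 0.0142). Its partner Lrpprc (-1.51) and the insertase Oxa1l (-2.09) did not pass. Cytosolic ribosomal proteins had a median change of -0.23, with 9 of 80 tested higher and 15 lower (52 and 4 after rescaling). Nuclear-encoded subunits of the respiratory chain and ATP synthase, which join the products of the mitochondrial ribosome, had a median of 0.21, with 15 of 79 higher and 21 lower (48 and 9 after rescaling). All genes tested had a median of -1.41, with 4.95% higher and 51.3% lower (14.3% and 18.6% after rescaling). Fusion replicate 2 was above fusion replicate 1 for 91.3% of the cytosolic and 86.1% of the respiratory genes. Their median coding lengths were 151 and 141 codons, against 194 in the mitochondrial ribosomal protein genes. The differences between these families were not tested.

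Factors known to act on promoters of mitochondrial genes were read next. Of 6 tested regulators, 5 fell and 1 did not pass, where 51.3% of all genes tested were lower. Nrf1, nuclear respiratory factor 1, was at 16.0 and 18.4 TPM in control and 0.710 and 2.07 TPM in fusion libraries (-2.99 ± 0.49, limma adjusted p = 0.00692). Myc (-2.90), Gabpb1 (-2.74) and Gabpa (-1.44) fell too. Yy1 was at 4.39 and 4.36 TPM in control and 9.65 and 8.37 TPM in fusion libraries and did not pass (limma adjusted p = 0.117). After rescaling, 1 of the 6 was lower and 1 higher. Gabpa and Yy1 are given because their motifs were searched.

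The promoters of the members were searched for letters that these factors are known to bind. RefSeq (GRCm38.p6) gave 69 of the 78 genes a promoter of 300 bases, from 250 bases before the start to 50 after it. On either strand, the Nrf1 core GCGCATGC was in 8 of the 69 (11.6%), beside 3.05% of 27025 promoters and 6.28% of those of tested genes. The Ets core CCGGAAG, bound by Gabpa, was in 26 (37.7%), beside 9.93% of all and 20.8% of those of tested genes. The Yy1 core AAGATGGCG was in 8 (11.6%), beside 1.64% and 3.71%. Matches of different motifs can overlap, since the Ets core ends in letters that begin the Yy1 core, and 33 of the 69 held none of the 3.

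The motifs were found in each class of call. The Nrf1 core was in 1 of 3 raised, 4 of 33 lowered and 3 of 33 genes that did not pass. The Ets core was in 1 of 3, 9 of 33 and 16 of 33, and the Yy1 core in 1 of 3, 4 of 33 and 3 of 33. The differences between these shares were not tested, and a match of letters is not a measured binding site.

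The 150 bases before the start are printed for 4 members, chosen after their values were seen, to show the same motifs before genes with different changes. Mrpl33 rose, Mrpl32 did not pass (-0.23), and Mrpl10 and Mrps27 fell. Sequences read 5′ to 3′ on the strand of the gene, with the Nrf1 core (or its reverse complement GCATGCGC) and the Ets core (or its reverse complement CTTCCGG) in capitals.
Mrpl33, chr5:31613801-31613950, plus strand: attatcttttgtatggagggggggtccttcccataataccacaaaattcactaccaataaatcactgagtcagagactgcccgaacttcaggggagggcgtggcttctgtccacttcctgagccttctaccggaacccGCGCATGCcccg
Mrpl32, chr13:14613038-14613187, minus strand: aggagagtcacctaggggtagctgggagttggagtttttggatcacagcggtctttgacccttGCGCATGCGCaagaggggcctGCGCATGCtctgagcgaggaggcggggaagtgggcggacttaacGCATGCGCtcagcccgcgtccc
Mrpl10, chr11:97041432-97041581, plus strand: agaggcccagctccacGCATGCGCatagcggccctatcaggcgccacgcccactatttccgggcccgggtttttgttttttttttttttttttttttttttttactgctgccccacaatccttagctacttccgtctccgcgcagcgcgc
Mrps27, chr13:99344636-99344785, plus strand: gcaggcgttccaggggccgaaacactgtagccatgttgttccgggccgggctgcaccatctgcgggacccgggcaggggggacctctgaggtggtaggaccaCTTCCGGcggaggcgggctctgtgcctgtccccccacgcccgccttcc
Mrpl33 has 1 Nrf1 core, 12 bases before the start, and an Ets core that begins 3 bases before the start and runs past the printed bases, so it is not in capitals. Mrpl32 has 4 matches on the 2 strands, of which the first pair overlap as a longer palindrome, 87 and 85 bases before the start, and the others begin 66 and 22 bases before it. Mrpl10 has 1 match, 134 bases before the start, and Mrps27 has 1 Ets core, 48 bases before it. The Nrf1 core thus stands before a gene that rose, 1 that did not pass and 1 that fell. The start used for Mrpl33 lies within the span that GENCODE gives this gene, not at its edge.

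Some members cannot be read cleanly from short reads. Mrpl23 is identical over 540 bases to Mrpl23-ps1, a pseudogene whose row was at 575, 609.6, 287 and 804 TPM in control replicates 1 and 2 and fusion replicates 1 and 2, against 24.6, 22.4, 22.8 and 55.6 TPM for Mrpl23 itself. Reads of this pair could be split either way, so the level of Mrpl23 is uncertain. In all, 17 members have a copy elsewhere that matches at 95% or more over at least 300 bases, and the other copies were at 0.805 TPM or less. Since no stranded kit is named in the labels, 23 members that overlap a coding gene on the other strand are uncertain to the extent that such reads were shared, Mrpl33 with Rbks among them. A coding gene on the same strand overlaps 4 members: Mrps6 (Slc5a3), Mrps24 (Urgcp), Mrps34 (Nme3) and Mrpl53.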

How the data were processed

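The authors deposited 1 table of TPM, a length-scaled share of transcripts with equal totals for every library, so read depth is unknown and no counting interval or floor is given. The submitters' processing notes name Trimmomatic 0.39, Salmon 1.8.0, GRCm38 and mm10. An annotation release for the quantification is not named in the labels. Per the labels' protocols, an amplification kit for single cells made the cDNA, which was read from both ends. Samples were grouped by the genotype in their titles. The filter of 1 TPM or more in 2 or more libraries was applied. Genes were compared on log2(TPM + 1) with limma 3.58.1 in R 4.3.3 (eBayes with a trend, 2-sided, Benjamini-Hochberg over 12871 genes, threshold 0.05). Changes on this scale understate those of low genes. The fit was also run on simulated data with an equal spread for every gene in both groups and few changed genes. The real data differ in both respects, so that run does not show how the fit behaves on them. Coordinates and lengths came from GENCODE M21 (GRCm38) and near copies from blastn 2.17.0.

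The members, their lists and the naming rule were chosen with earlier results of these data known. The rule took the 10 highest members, every raised one, the 10 largest falls, the 5 changes nearest 0, up to 6 abundant genes split by the fusion libraries, the highest of each role, the Mrps18 genes and up to 3 per related list. Of the related lists, 1 gene within the rule is not reported here. Alternatives were other pseudocounts, filters, scalings and limma settings, a replicate block, each library left out, and a loess correction (span 0.3) for GC content and length.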

Additional observations from a re-analysis of the deposited data

How the results depend on the processing

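With 2 libraries in a group and TPM in place of counts, depth and single-library outliers could not be assessed. Under the alternatives tried, no member called with TPM as deposited was called in the other direction. The 37 lower and 3 higher members became 29 and 0 with no filter on low values (4 higher at an unadjusted p under 0.05, limma), 37 and 5 at a mean of at least 5 TPM, 14 and 24 with median ratio scaling, 15 and 18 with quantile normalization, 32 and 8 without mitochondrially encoded genes, 31 and 9 without these and cytosolic ribosomal protein genes, and 19 and 12 after the GC content and length correction. The median change of the members was 0.31 with median ratio scaling, 0.13 with quantile normalization and -0.026 after the correction, which by its construction removes much of any shift shared by a library's genes. Its difference from the median of all genes, -0.04 as deposited, changed sign with the setting: -1.06 with no filter, -0.59 at a pseudocount of 5, 0.53 at a pseudocount of 0.1, 0.38 at a mean of at least 5 TPM and 0.46 with median ratio scaling. Leaving out 1 library gave 0 to 15 higher and 0 to 62 lower members. With 1 library left in a group, the spread was taken from the other group alone. The median absolute log2 difference between libraries was 0.13 in control and 1.03 in fusion for the members. The cause of these shifts was not tested. With a replicate block 3 were higher and 38 lower, and among named members Mrps14 alone lost its call. The replicate numbers are not stated to pair the libraries, and the differences of replicate 2 from replicate 1 had a correlation of -0.04 between the groups.

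Of the members called lower, 8 had a value above 0 with median ratio scaling (0.0061 to 0.55, none past the threshold), 5 with quantile normalization and 5 after the GC content and length correction; none of these 8 or 5 is a named member. The named members whose value changed sign had not passed. With median ratio scaling they were Mrpl1 1.49, Mrpl17 0.31, Mrpl20 1.33, Mrpl22 1.40, Mrpl27 1.05, Mrpl3 1.65, Mrpl36 1.37, Mrpl41 1.41, Mrpl52 1.498 and Mrpl54 0.98. With quantile normalization they were Mrpl1 1.51, Mrpl20 0.58, Mrpl22 0.95, Mrpl27 0.044, Mrpl3 1.64, Mrpl36 0.99, Mrpl41 0.69, Mrpl52 0.83 and Mrpl54 0.65. After the GC content and length correction they were Mrpl1 0.93, Mrpl20 0.32, Mrpl22 0.16, Mrpl3 1.22, Mrpl36 0.60, Mrpl41 0.40 and Mrpl52 0.24. Without mitochondrially encoded genes they were Mrpl1 0.37, Mrpl20 0.14, Mrpl22 0.20, Mrpl3 0.53, Mrpl36 0.18, Mrpl41 0.21 and Mrpl52 0.30, and without cytosolic ribosomal protein genes as well 0.43, 0.20, 0.26, 0.58, 0.24, 0.27 and 0.36 in the same order. With a pseudocount of 5 Mrpl3 was at 0.069. Over the fits that left out 1 library, Mrpl1 ran from -1.26 to 0.95, Mrpl20 from -1.21 to 0.35, Mrpl22 from -1.36 to 0.63, Mrpl3 from -1.25 to 1.24, Mrpl30 from -0.22 to 1.03, Mrpl36 from -1.06 to 0.28, Mrpl41 from -0.77 to 0.046, Mrpl52 from -0.74 to 0.21, Mrps21 from -0.24 to 0.48, Mrps30 from -0.51 to 0.66 and Mrps34 from -1.10 to 1.42.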
